A study of Mus musculus with 6 samples.

Results

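The genes described here are the protein-coding genes of the mouse mitochondrial genome and the nuclear genes whose products copy, transcribe and process that genome, in alveolar macrophages, phagocytes that live in the airspaces of the lung. They were taken by gene symbol from a list of 38 names, 13 mitochondrial mRNAs and 25 nuclear factors, and all 38 were found among the 25664 genes of the count table. RNA from 50000 sorted lavage macrophages per sample was sequenced in 6 libraries, with single-end reads of 100 bases. The 3 tested libraries came from mice of genotype Vav1cre/+ Pex5fl/fl, named Vav1-Cre Pex5fl/fl here, and the 3 control libraries from Pex5fl/fl mice without the recombinase. Both groups therefore carry the floxed Pex5 alleles. Vav1-Cre recombines in blood-forming cells and their descendants, so it is not restricted to macrophages. The sources used here give neither age nor sex. PEX5 is the receptor that carries most matrix enzymes into peroxisomes.

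Mammalian mitochondrial DNA is a small circle that encodes subunits of the respiratory chain and the ATP synthase, together with the rRNAs and tRNAs needed to translate them. The single-subunit polymerase POLRMT, with TFAM and TFB2M, transcribes each strand as a long precursor, and the mRNAs are freed by cleavage at the tRNAs between them. Their levels then depend on binding proteins such as LRPPRC with SLIRP, on polyadenylation and on a degradosome, while every protein of this machinery is made from nuclear genes and imported. Macrophages use the respiratory chain both for ATP and in the control of their activation.

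Vav1-Cre Pex5fl/fl replicates 1, 2 and 3 held 13325609, 17814958 and 19413838 counts, and control replicates 1, 2 and 3 held 14226108, 18987200 and 14346831. Vav1-Cre replicate 2 stood apart: the 50 genes most abundant over all libraries made up 30.4% of it, against 38.3% to 42.1% of each other library, and it had a scaling factor of 1.34, against 0.90 to 1.03. Levels are given as CPM, which are counts scaled to the library total multiplied by its scaling factor. The marker sums in this paragraph use the library total alone. Pex5 itself had 31.4, 36.3 and 29.6 CPM in the Vav1-Cre libraries and 33.0, 32.1 and 29.7 CPM in the control libraries. A count over a whole floxed gene keeps the reads of the remaining exons, so it does not check the labels. All 10 alveolar macrophage markers were detected, with summed levels of 42455 to 67183 CPM in Vav1-Cre and 48324 to 65288 CPM in control libraries. Of these markers 7 had a negative and 3 a positive log2 fold change, with a median of -0.42. Siglecf fell (log2 fold change -1.57) and Fabp4 rose (1.46). Ear2 (-1.58) and Itgax (-0.43) also lay below all control libraries in every Vav1-Cre library, but missed the threshold given below. Neutrophil markers summed to 20.5 to 37.2 CPM in Vav1-Cre and 4.48 to 7.81 CPM in control libraries, nearly all of it S100a8, while 6 of the 8, among them S100a9, Retnlg, Ly6g and Elane, were at 0 in every library. Haemoglobin and other red cell genes reached 6.79 CPM in Vav1-Cre replicate 2, and 0.0750 and 0.155 CPM in the other Vav1-Cre libraries, against 0 in the control libraries. Eosinophil markers were at 0 throughout, and monocyte, lymphocyte and epithelial markers each summed to at most 5.79 CPM. The part of these other cells in the results below was not tested. In bulk RNA, fewer cells of a type and less RNA per cell cannot be told apart.

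Several mitochondrial mRNAs share sequence with nuclear genes, and a few sequences are shown to make plain where they do and do not. The nuclear genome holds copies of mitochondrial DNA, and 7 annotated copies lie on the minus strand of chromosome 1 between 24611535 and 24616197 (GRCm38). They match mt-Co1, mt-Co2, mt-Atp6, mt-Co3, mt-Nd3, mt-Nd4l and mt-Nd4, in the order of the mitochondrial genome. The copies of mt-Co2 (Gm28661), mt-Atp6 (Gm10925), mt-Co3 (Gm28437) and mt-Nd4l (Gm10222) are identical over their annotated length, and that of mt-Nd3 (Gm28438) differs by T3C, counted from 1 at the start of the gene. Gm28439 repeats the first 876 of the 1378 bases of mt-Nd4. The copy of mt-Co1, Gm29216, starts at base 1054 of that gene. Of its 492 bases 486 match, with T1056A, C1057T, A1059G, A1060G, C1062A and A1066T, the mitochondrial base given before the position. From base 1067 onwards both are the same for 479 bases, as the start of the stretch shows (chrM:6381-6440, plus strand, and chr1:24616138-24616197, minus strand; capitals mark the bases that differ):
mt-Co1: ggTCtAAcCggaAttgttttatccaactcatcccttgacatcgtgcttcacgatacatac
Gm29216: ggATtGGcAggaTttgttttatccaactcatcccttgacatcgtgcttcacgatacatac

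For each gene the share of its 100-base words, the length of a read, that also occurs in another annotated gene was counted in GENCODE mouse release M21. It was 0% for mt-Nd1, mt-Nd5, mt-Nd6, mt-Cytb and mt-Atp8, 3.20% for mt-Nd2, 30.8% for mt-Co1 and 60.8% for mt-Nd4. For mt-Nd3 it was 97.6%, and for mt-Nd4l, mt-Atp6, mt-Co2 and mt-Co3 it was 98.5% to 99.9%. These last 4 mRNAs had 0 to 20 counts in any library, whereas mt-Nd3 had 89 to 285. mt-Co2, a core subunit of cytochrome c oxidase, had 0, 0 and 1 counts in Vav1-Cre libraries and 1, 2 and 0 in control libraries. A count of 0 allows up to 3 counts, or 0.225 CPM of the library total in Vav1-Cre replicate 1. mt-Co3, of the same complex, had 1, 8 and 9 counts in Vav1-Cre and 15, 5 and 4 in control libraries. The groups overlapped for both, and neither passed the filter on low counts. mt-Atp6, the proton channel subunit of the ATP synthase, had 2, 6 and 8 counts in Vav1-Cre and 9, 5 and 7 in control libraries. mt-Nd4l, a membrane subunit of complex I, had 5, 3 and 8 counts in Vav1-Cre and 10, 20 and 3 in control libraries. These 2 overlapped and were likewise not tested. The sources used here do not say how the authors' counting treated reads that match several places, counts of the nuclear copies were not analysed, and the part of shared sequence in the low counts was not tested.

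mt-Atp8, which encodes a small subunit of the ATP synthase, shared no word with an annotated gene and still had 2, 2 and 13 counts in Vav1-Cre and 15, 14 and 0 in control libraries. Its neighbours on the mitochondrial genome are mt-Co2 and mt-Atp6, and the copies of those genes on chromosome 1, Gm28661 from 24614885 and Gm10925 up to 24614651, leave an unannotated gap where a copy of mt-Atp8 would lie. That gap was not compared. Neighbouring mitochondrial genes also share bases with each other. mt-Atp8 and mt-Atp6 overlap by 43 bases in different reading frames, mt-Nd4l and mt-Nd4 by 7, and mt-Nd5 and mt-Nd6, on opposite strands, by 14. The overlaps are shown in capitals within chrM:7907-7989, chrM:10147-10193 and chrM:13532-13565, all on the plus strand:
mt-Atp8 and mt-Atp6: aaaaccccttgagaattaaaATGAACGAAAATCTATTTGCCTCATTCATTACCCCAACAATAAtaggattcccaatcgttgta
mt-Nd4l and mt-Nd4: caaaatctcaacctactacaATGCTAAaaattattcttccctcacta
mt-Nd5 and mt-Nd6: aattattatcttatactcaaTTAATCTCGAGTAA

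**Figure D1:**
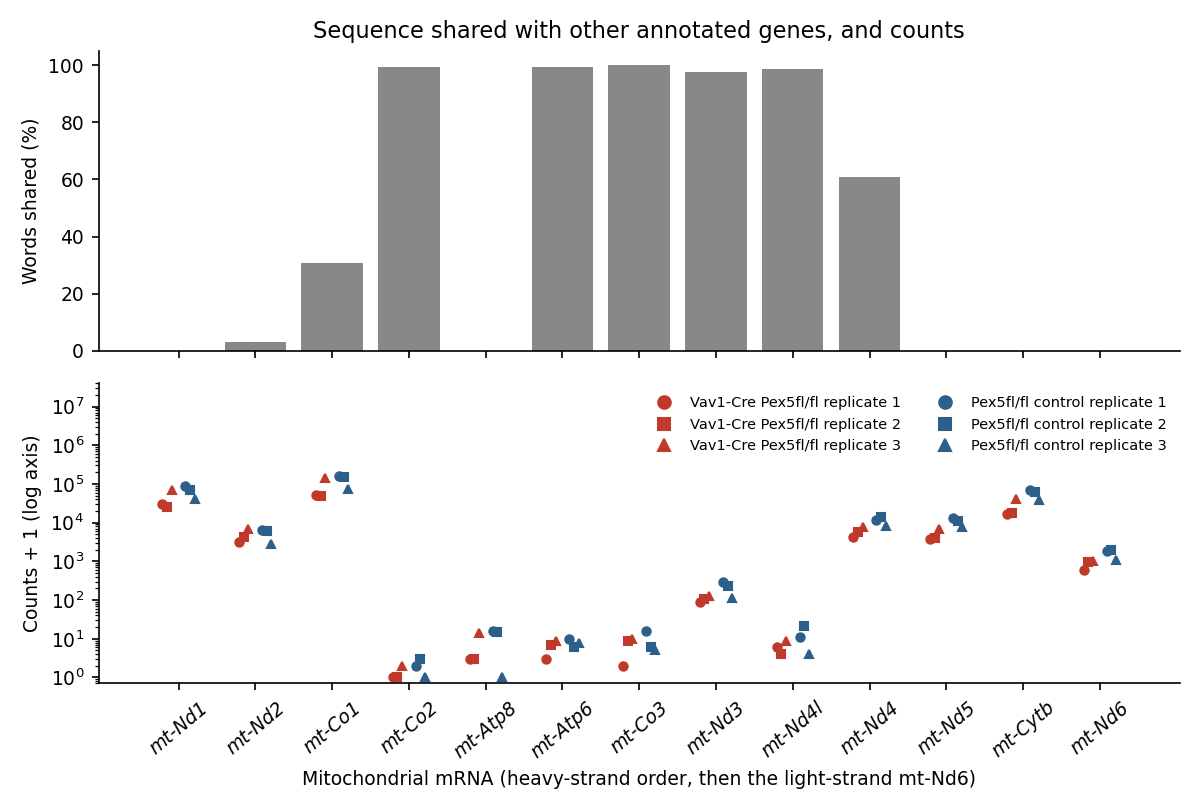
Top, share of each mitochondrial mRNA's 100-base words that occur in another annotated gene (percent). Bottom, counts plus 1 in each of the 6 libraries on a log axis, Vav1-Cre Pex5fl/fl in red and Pex5fl/fl control in blue. The 4 genes with 98.5% to 99.9% of words shared lie at 20 counts or fewer, as does mt-Atp8 with 0%, whereas mt-Nd1 and mt-Co1 hold 24723 to 160436 counts. mt-Nd3, with 97.6% of words shared, holds 89 to 285 counts.

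The comparison of Vav1-Cre Pex5fl/fl with Pex5fl/fl macrophages asks what differs in these transcripts where PEX5 is targeted. Mitochondrial mRNAs were fewer in Vav1-Cre macrophages on average. None of the 25 listed nuclear factors was called, near the share of 3.25% called among all genes tested. mt-Nd4 averaged 338 ± 93.8 CPM in Vav1-Cre and 763 ± 192 CPM in control macrophages (SD, n = 3 each), and mt-Nd6 averaged 47.2 ± 8.54 and 109.6 ± 34.3 CPM. Both encode membrane subunits of complex I, and both fell. Tfam, which packages mitochondrial DNA, averaged 12.58 ± 1.005 CPM in Vav1-Cre and 11.96 ± 0.387 CPM in control macrophages. The difference in mitochondrial mRNA was uneven among libraries, and most genes overlapped between groups or missed the threshold.

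A gene is called here at an adjusted p under 0.05 by edgeR's quasi-likelihood test, adjusted by the Benjamini-Hochberg method over the 11011 genes that passed a filter on low counts. This held for 358 genes, 3.25% of those tested, of which 166 (1.51%) were lower and 192 (1.74%) higher in Vav1-Cre macrophages. Of the 13 mitochondrial mRNAs 9 passed the filter, and of these 2 were called lower and 0 higher. All 9 had a negative log2 fold change, from -1.39 for mt-Cytb to -0.33 for mt-Nd2, with a median of -1.17, against a median of -0.00077 over all genes tested. At an unadjusted p under 0.05 there were 5 of the 9, where all genes gave 18.9%. For 5 of the 9, mt-Nd3, mt-Nd4, mt-Nd5, mt-Nd6 and mt-Cytb, every Vav1-Cre library lay below every control library, which held for 13.1% of all genes tested, while groups were separate in either direction for 26.1%. The 9 mRNAs come from 1 genome as shared precursors, so their signs are not independent of each other. Without Vav1-Cre replicate 2, the library that stood apart, the median was -0.85, mt-Nd4 stayed called (adjusted p = 0.0488) and mt-Nd6 did not (0.0537).

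The summed mitochondrial mRNAs took 0.840% (95% exact Clopper-Pearson interval 0.835% to 0.845%), 0.592% (0.588% to 0.595%) and 1.42% (1.41% to 1.42%) of all counts in the Vav1-Cre libraries. They took 2.48% (2.48% to 2.49%), 1.67% (1.67% to 1.68%) and 1.209% (1.203% to 1.214%) in the control libraries. Vav1-Cre replicate 3 thus lay above control replicate 3, and the groups overlapped in that 1 pair. The means were 0.949 ± 0.423% in Vav1-Cre and 1.79 ± 0.646% in control libraries (SD, n = 3 each), a ratio of 0.531. The intervals cover counting error alone and are far narrower than the spread between libraries. mt-Nd1, mt-Co1 and mt-Cytb together made up 85.6% to 91.8% of these counts, so the share follows 3 genes.

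Summed levels of nuclear genes of the same organelle differed less between the groups. The 75 nuclear-encoded subunits of oxidative phosphorylation summed to 13601, 11047 and 14922 CPM in Vav1-Cre and 13635, 12678 and 12816 CPM in control libraries, with the Vav1-Cre values on either side of the control ones. Mitochondrial mRNA over these subunits gave ratios of 0.644, 0.401 and 1.04 in Vav1-Cre and 2.03, 1.43 and 0.913 in control libraries. Again only Vav1-Cre replicate 3 and control replicate 3 changed places. The 25 nuclear factors summed to 555, 555 and 560 CPM in Vav1-Cre and 518, 501 and 524 CPM in control libraries. On scaled CPM their sum was thus higher by a ratio of 1.08 with no overlap. Without the scaling factors the groups overlapped, with control replicate 3 above Vav1-Cre replicates 1 and 3. Mitochondrial mRNA over the nuclear factors was 15.8, 7.97 and 27.7 in Vav1-Cre and 53.3, 36.3 and 22.4 in control libraries. On the log2 scale that ratio was lower by a mean difference of -1.21 in Vav1-Cre libraries, and by -1.28 when the 7 mRNAs with over 10% shared words were left out. Without Vav1-Cre replicate 2 the difference was -0.75.

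**Figure D2:**
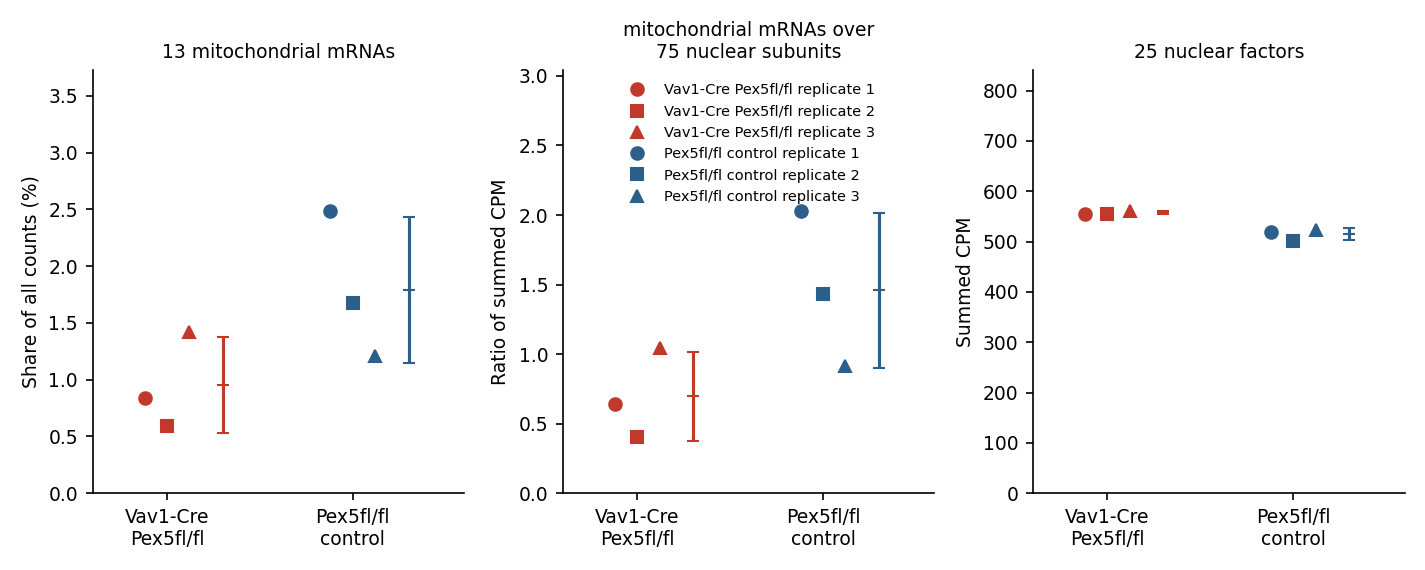
Left, summed counts of the 13 mitochondrial mRNAs as a percentage of all counts; middle, summed CPM of these mRNAs over that of 75 nuclear-encoded oxidative phosphorylation subunits; right, summed CPM of the 25 nuclear factors. Symbols are libraries, bars are mean ± SD (n = 3), and Vav1-Cre Pex5fl/fl stands left of Pex5fl/fl control. The left panels overlap in the replicates numbered 3, while the nuclear factors sum to 555 to 560 CPM in Vav1-Cre and 501 to 524 CPM in control libraries. The right panel uses scaled CPM, and without the scaling factors its groups overlap.

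Complex I, the NADH dehydrogenase, has its membrane arm built around the mitochondrial ND subunits. mt-Nd4 (chrM:10167-11544, plus strand) had 343, 242 and 429 CPM in Vav1-Cre libraries and 943, 785 and 560 CPM in control libraries. All Vav1-Cre libraries were below all control libraries, with replicates numbered 3 the closest. mt-Nd4 fell, with a log2 fold change of -1.17 ± 0.26 (SE, adjusted p = 0.0463). Leaving out Vav1-Cre replicate 1 (adjusted p = 0.155) or control replicate 1 (0.17), 2 (0.133) or 3 (0.0547) ended the call, as did a filter at a mean of 5 CPM (0.0558). Since 60.8% of its words are shared with the copy on chromosome 1, its counts are uncertain in part.

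mt-Nd6 (chrM:13552-14070, minus strand), the mRNA read from the opposite strand to the other 12, had 46.1, 39.2 and 56.2 CPM in Vav1-Cre libraries. In control libraries it had 143, 112 and 74.1 CPM. The groups did not overlap, and the control libraries were spread more widely than the Vav1-Cre ones. mt-Nd6 fell by 1.22 ± 0.23 on the log2 scale (SE, adjusted p = 0.0302). The call was lost without Vav1-Cre replicate 1 (adjusted p = 0.114) or 2 (0.0537), or control replicate 1 (0.104) or 2 (0.0903). Without strand information in the counting, reads of mt-Nd6 and of precursor RNA from the other strand cannot be told apart.

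mt-Nd5 (chrM:11742-13565), the largest ND subunit, had 291, 169 and 379 CPM in Vav1-Cre and 1015, 636 and 506 CPM in control libraries. Every Vav1-Cre value was below every control value. The log2 fold change of mt-Nd5 was -1.36 ± 0.33, with an adjusted p of 0.0685. mt-Nd3, a small subunit, had 6.96, 4.33 and 7.23 CPM in Vav1-Cre and 22.3, 12.9 and 7.56 CPM in control libraries. These groups touched without crossing, at Vav1-Cre replicate 3 and control replicate 3, and the log2 fold change was -1.21 ± 0.37 (adjusted p = 0.125). Nearly all of mt-Nd3 is shared with its nuclear copy, and its value is uncertain.

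The first mRNAs of the heavy-strand precursor overlapped between groups. mt-Nd1 (chrM:2751-3707), the ND subunit next to the quinone site, had 2352, 1039 and 3833 CPM in Vav1-Cre and 6863, 4091 and 2748 CPM in control libraries. Vav1-Cre replicate 3 exceeded control replicate 3, and the log2 fold change was -0.92 ± 0.49 (adjusted p = 0.349). mt-Nd2 (chrM:3914-4951), another membrane subunit, had 251, 182 and 399 CPM in Vav1-Cre and 505, 358 and 185 CPM in control libraries. Its values interleaved. The log2 fold change of mt-Nd2 was -0.33 ± 0.37 (adjusted p = 0.682), the smallest in size of the 9, with a 95% interval from -1.18 to 0.52.

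mt-Cytb (chrM:14145-15288), cytochrome b of complex III, had 1332, 752 and 2344 CPM in Vav1-Cre and 5598, 3480 and 2530 CPM in control libraries. The groups did not overlap, but Vav1-Cre replicate 3 came close to control replicate 3. Its log2 fold change of -1.39 ± 0.44 was the largest in size and was not called (adjusted p = 0.136). mt-Co1 (chrM:5328-6872), the catalytic subunit of cytochrome c oxidase, had 4135, 1999 and 8082 CPM in Vav1-Cre and 12550, 8706 and 5095 CPM in control libraries. Vav1-Cre replicate 3 lay between control replicates 2 and 3, so the groups overlapped. The log2 fold change of mt-Co1 was -0.89 ± 0.53 (adjusted p = 0.403). mt-Atp8, at 0.156, 0.0840 and 0.735 CPM in Vav1-Cre and 1.17, 0.802 and 0 CPM in control libraries, overlapped widely and gave -1.01 ± 1.01 (adjusted p = 0.643).

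**Figure D3:**
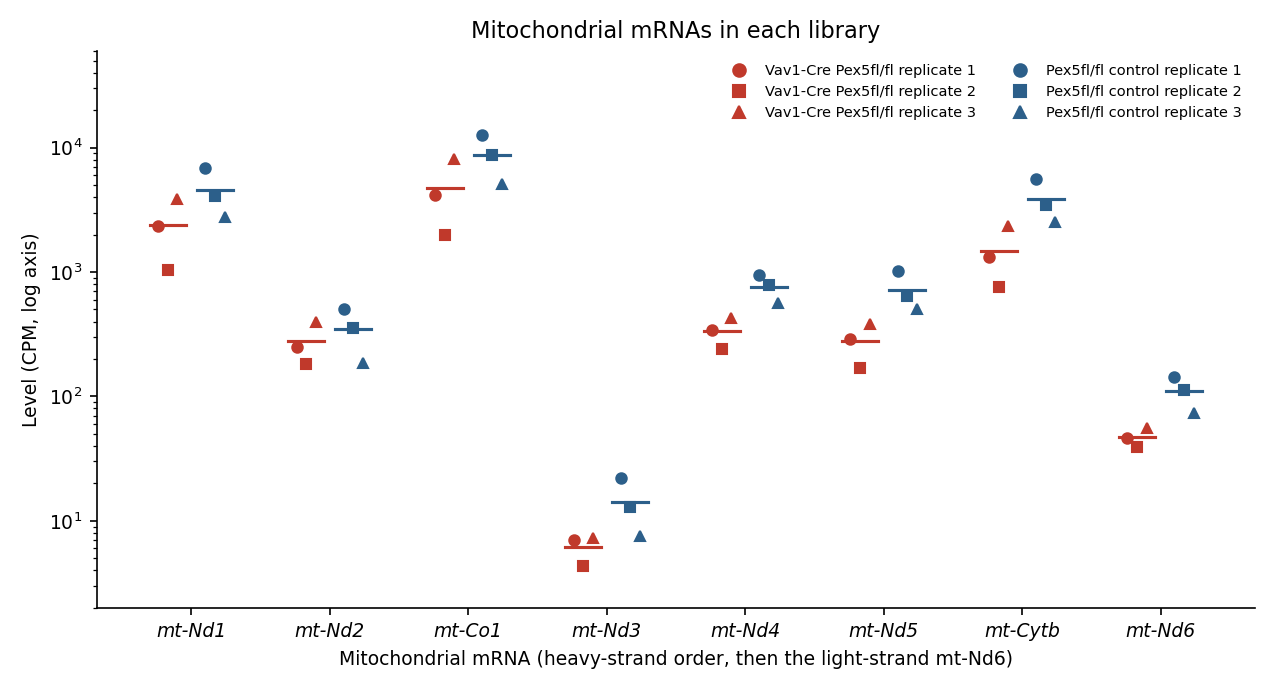
Level (CPM, log axis) of the 8 mitochondrial mRNAs that passed the filter and held more than 20 counts in some library, with 1 symbol per library and a line at each group's mean. Vav1-Cre Pex5fl/fl (red) stands left of Pex5fl/fl control (blue). In each gene Vav1-Cre replicate 3 is the highest of its group and control replicate 3 the lowest of its own, and the groups are separate for mt-Nd3, mt-Nd4, mt-Nd5, mt-Cytb and mt-Nd6.

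On scaled CPM, Vav1-Cre replicate 2 was the lowest library and control replicate 1 the highest in each of the 8 genes plotted. The order of the other 4 libraries differed between genes. Without the scaling factors the lowest library was Vav1-Cre replicate 1 for mt-Nd6 and control replicate 3 for mt-Nd2. To compare genes with each other, levels were set per 1000 positions whose 100-base word is unshared. This assumes that reads from shared words were not counted, which the sources used here do not state. If they were counted, the scale overstates mt-Co1 and mt-Nd4. On that scale mt-Co1 had 4739 ± 3086 in Vav1-Cre and 8784 ± 3728 in control libraries, mt-Nd1 2806 ± 1629 and 5323 ± 2445, and mt-Cytb 1413 ± 771 and 3703 ± 1503 (mean ± SD, n = 3 each). mt-Nd4 stood at 673 ± 187 in Vav1-Cre and 1519 ± 383 in control libraries. Neighbours among these 4 overlapped in their library values, except that mt-Cytb was above mt-Nd4 in all control libraries, at 2421 or more against 1878 or less. Within each library the order of level was mt-Co1, mt-Nd1, mt-Cytb, then mt-Nd4. mt-Nd2 was at 276, 200.4 and 439 in Vav1-Cre and 556, 394 and 204 in control libraries, and mt-Nd5 at 169, 97.8 and 220 in Vav1-Cre and 589, 369 and 293 in control libraries. mt-Nd2 was thus above mt-Nd5 in all 3 Vav1-Cre libraries and in 1 of 3 control libraries. mt-Nd6 was lower than both in every library, at 110, 93.4 and 134 in Vav1-Cre and 340, 267 and 176 in control libraries. For comparison, Polrmt had 5.55 to 6.45 on the same scale over all libraries. mt-Nd3 was left out of this order because only 6 of its words are unshared.

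Ratios between mitochondrial mRNAs of a library do not depend on how libraries are scaled. Relative to mt-Nd1, mt-Nd2 had ratios of 0.107, 0.175 and 0.104 in Vav1-Cre and 0.0736, 0.0875 and 0.0674 in control libraries. All 3 Vav1-Cre ratios were above all 3 control ratios. mt-Cytb had 0.566, 0.724 and 0.611 in Vav1-Cre and 0.816, 0.851 and 0.921 in control libraries. Here all Vav1-Cre ratios were below the control ones. mt-Co1 over mt-Nd1 was 1.76, 1.92 and 2.11 in Vav1-Cre and 1.83, 2.13 and 1.85 in control libraries. That ratio overlapped fully and was the most even over the 6 libraries. mt-Nd4, mt-Nd5 and mt-Nd6 over mt-Nd1 also overlapped, and for mt-Nd4 and mt-Nd6 the spread was wider in Vav1-Cre libraries, with replicate 2 the highest. These ratios were formed after seeing the levels and carry no test.

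**Figure D4:**
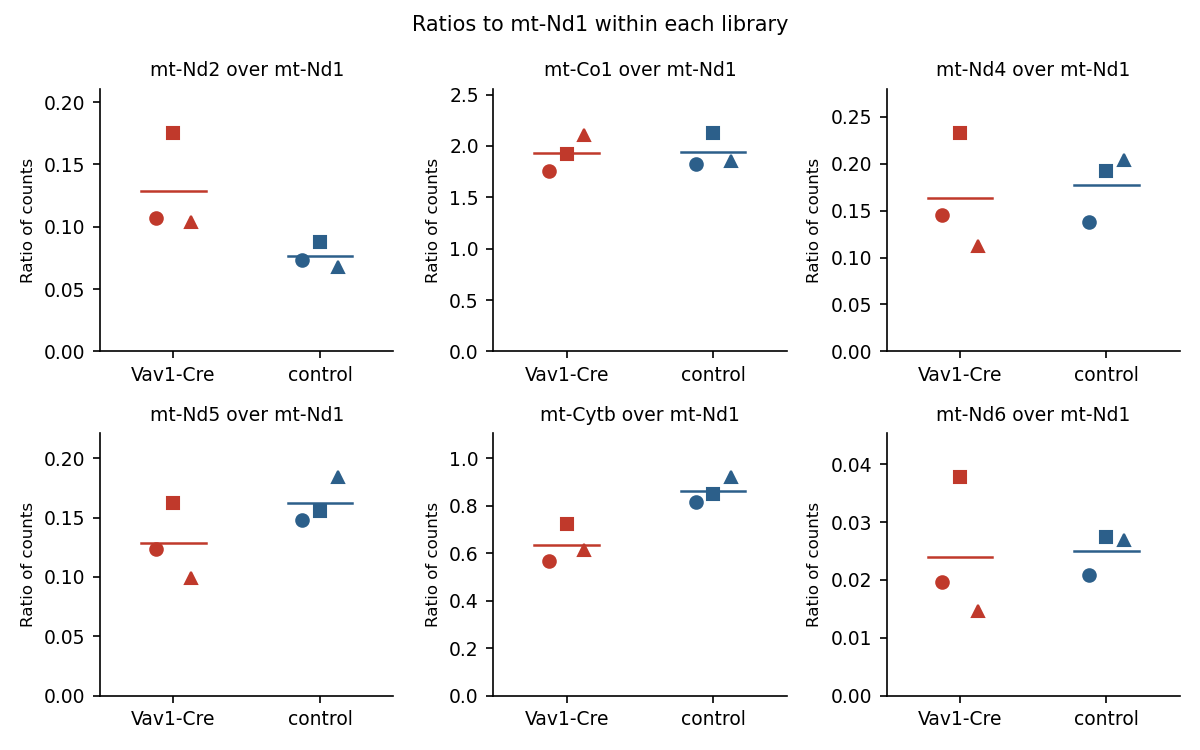
Counts of 6 mitochondrial mRNAs over counts of mt-Nd1 in each library, with a line at each group's mean, Vav1-Cre Pex5fl/fl left of Pex5fl/fl control and symbols for replicates 1 (circle), 2 (square) and 3 (triangle). mt-Nd2 is higher and mt-Cytb lower in all Vav1-Cre libraries, at 0.104 to 0.175 and 0.566 to 0.724, against 0.0674 to 0.0875 and 0.816 to 0.921 in control libraries. The other 4 overlap.

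All 25 nuclear factors passed the filter and 0 were called in either direction by edgeR's quasi-likelihood test, where 3.25% of all genes tested were called. DESeq2 and limma-voom also called 0. At an unadjusted p under 0.05 in edgeR there were 3 of the 25, Fastkd2, Clpp and Grsf1, where all genes gave 18.9%. Of the 25, 14 had a positive and 11 a negative log2 fold change, from -0.29 for Top1mt to 0.62 for Grsf1, with a median of 0.08. Vav1-Cre libraries lay above all control libraries for 5 genes, Polg2, Slirp, Fastkd2, Grsf1 and Clpp, where this held for 13% of all genes tested. They lay below for Elac2 alone, where this held for 13.1% of all genes tested.

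Transcription of the mitochondrial genome rests on 4 of these genes. Polrmt, the polymerase (chromosome 10 from 79736123 to 79746581), had 24.5, 26.4 and 25.8 CPM in Vav1-Cre and 23.2, 26.7 and 27.0 CPM in control libraries. The values interleaved, and the log2 fold change was -0.00 ± 0.11 (adjusted p = 0.987), with a 95% interval from -0.24 to 0.24. Tfam had 12.3, 13.7 and 11.8 CPM in Vav1-Cre and 12.2, 11.5 and 12.2 CPM in control libraries. These overlapped too, at 0.08 ± 0.13 (adjusted p = 0.806) and an interval from -0.22 to 0.38. Tefm, the elongation factor, had 8.45, 7.19 and 6.44 CPM in Vav1-Cre and 4.77, 6.47 and 6.08 CPM in control libraries. Vav1-Cre replicate 3 fell just inside the control range, and Tefm gave 0.34 ± 0.20 (adjusted p = 0.390). Tfb2m, which opens the promoter with POLRMT, gave 0.12 ± 0.19, and Tfb1m, which methylates the small mitochondrial rRNA, -0.04 ± 0.19. Tfb2m shares 37.3% of its words with Gm1818, so its counts are uncertain in part. The misses do not show equal levels. The 95% intervals of Polrmt and Tfam lay above those of mt-Nd3, mt-Nd4, mt-Nd5, mt-Nd6 and mt-Cytb. They overlapped those of mt-Nd1, mt-Nd2, mt-Co1 and mt-Atp8.

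Replication was covered by Polg, Polg2, Ssbp1 and Top1mt. Polg, the catalytic subunit of the DNA polymerase, had 22.7, 23.1 and 17.6 CPM in Vav1-Cre and 19.8, 20.9 and 23.5 CPM in control libraries. The groups overlapped, at -0.02 ± 0.14 (adjusted p = 0.959). Polg2, its accessory subunit, had 5.63, 6.81 and 6.22 CPM in Vav1-Cre and 5.48, 4.18 and 5.33 CPM in control libraries. All Vav1-Cre values were above the control ones by a narrow margin, and Polg2 gave 0.32 ± 0.19 (adjusted p = 0.405). Ssbp1, which coats single-stranded mitochondrial DNA, gave 0.18 ± 0.13, and Top1mt, a mitochondrial topoisomerase, -0.29 ± 0.18.

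Among 7 genes that bind or stabilise mitochondrial RNA, the FASTK family member Fastkd2, which is needed for the large ribosomal RNA and for some mRNAs, had the smallest p. Fastkd2 (chromosome 1 from 63730614 to 63754655) had 23.3, 19.5 and 22.7 CPM in Vav1-Cre and 15.4, 16.8 and 14.9 CPM in control libraries. All Vav1-Cre libraries were higher, with replicate 2 nearest the control values. Its log2 fold change was 0.47 ± 0.12 (adjusted p = 0.0819), and it was called only when Vav1-Cre replicate 2 was left out (0.0458). Grsf1, an RNA granule protein that takes part in RNA processing and decay, had 34.6, 27.1 and 24.2 CPM in Vav1-Cre and 20.3, 13.6 and 22.1 CPM in control libraries. Every Vav1-Cre value was above the control values, and Grsf1 gave 0.62 ± 0.20 (adjusted p = 0.141). Slirp, the partner of LRPPRC, had 42.5, 47.3 and 44.6 CPM in Vav1-Cre and 40.8, 36.5 and 38.6 CPM in control libraries. These were separate as well, at 0.21 ± 0.10 (adjusted p = 0.274). Of the exonic bases of Slirp 97.8% lie opposite exons of Snw1 and Alkbh1, so its reads are uncertain. Lrpprc itself gave -0.07 ± 0.12. The other 3, Fastk, Fastkd5 and Tbrg4, ranged from -0.03 to 0.09, and Fastkd5 shares 64.1% of its words with Ubox5 on the same strand and Fastk 24.6%, most with Slc4a2.

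The genes of end processing, tailing and decay were Elac2, Trmt10c, Mtpap, Pnpt1 and Supv3l1. Trmt10c, a subunit of the enzyme that cleaves tRNA 5′ ends, had 11.97, 16.05 and 18.03 CPM in Vav1-Cre and 14.0, 12.3 and 9.92 CPM in control libraries. The groups overlapped, and Trmt10c gave 0.35 ± 0.19 (adjusted p = 0.358). Elac2, which cleaves the 3′ ends, averaged 27.3 ± 1.44 CPM in Vav1-Cre and 30.3 ± 0.0930 CPM in control libraries, with -0.15 ± 0.09 (adjusted p = 0.439). The poly(A) polymerase Mtpap and the degradosome genes Pnpt1 and Supv3l1 ranged from -0.15 to 0.24. Mtpap shares 29.6% of its words with Gm26865. Pnpt1 was at 43.3 CPM in Vav1-Cre replicate 3 and at 20.1 to 33.9 CPM in the other 5 libraries.

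The nuclear transcription factors of this system are NRF1 and the ETS family factor GABPA. Nrf1 averaged 23.2 ± 2.55 CPM in Vav1-Cre and 27.0 ± 3.57 CPM in control libraries, and Gabpa 29.4 ± 1.13 and 30.5 ± 1.06 CPM. Neither was called, at -0.22 ± 0.13 and -0.05 ± 0.09. Of the matrix proteases, Lonp1, which degrades free TFAM, had 39.7, 45.1 and 36.1 CPM in Vav1-Cre and 30.4, 25.1 and 39.7 CPM in control libraries. Control replicate 3 lay within the Vav1-Cre range, and Lonp1 gave 0.35 ± 0.17 (adjusted p = 0.308). Clpp, the proteolytic subunit of the ClpXP protease, had 49.0, 44.6 and 47.7 CPM in Vav1-Cre and 32.3, 39.0 and 39.0 CPM in control libraries. Its groups were separate, and Clpp gave 0.35 ± 0.11 (adjusted p = 0.123).

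**Figure D5:**
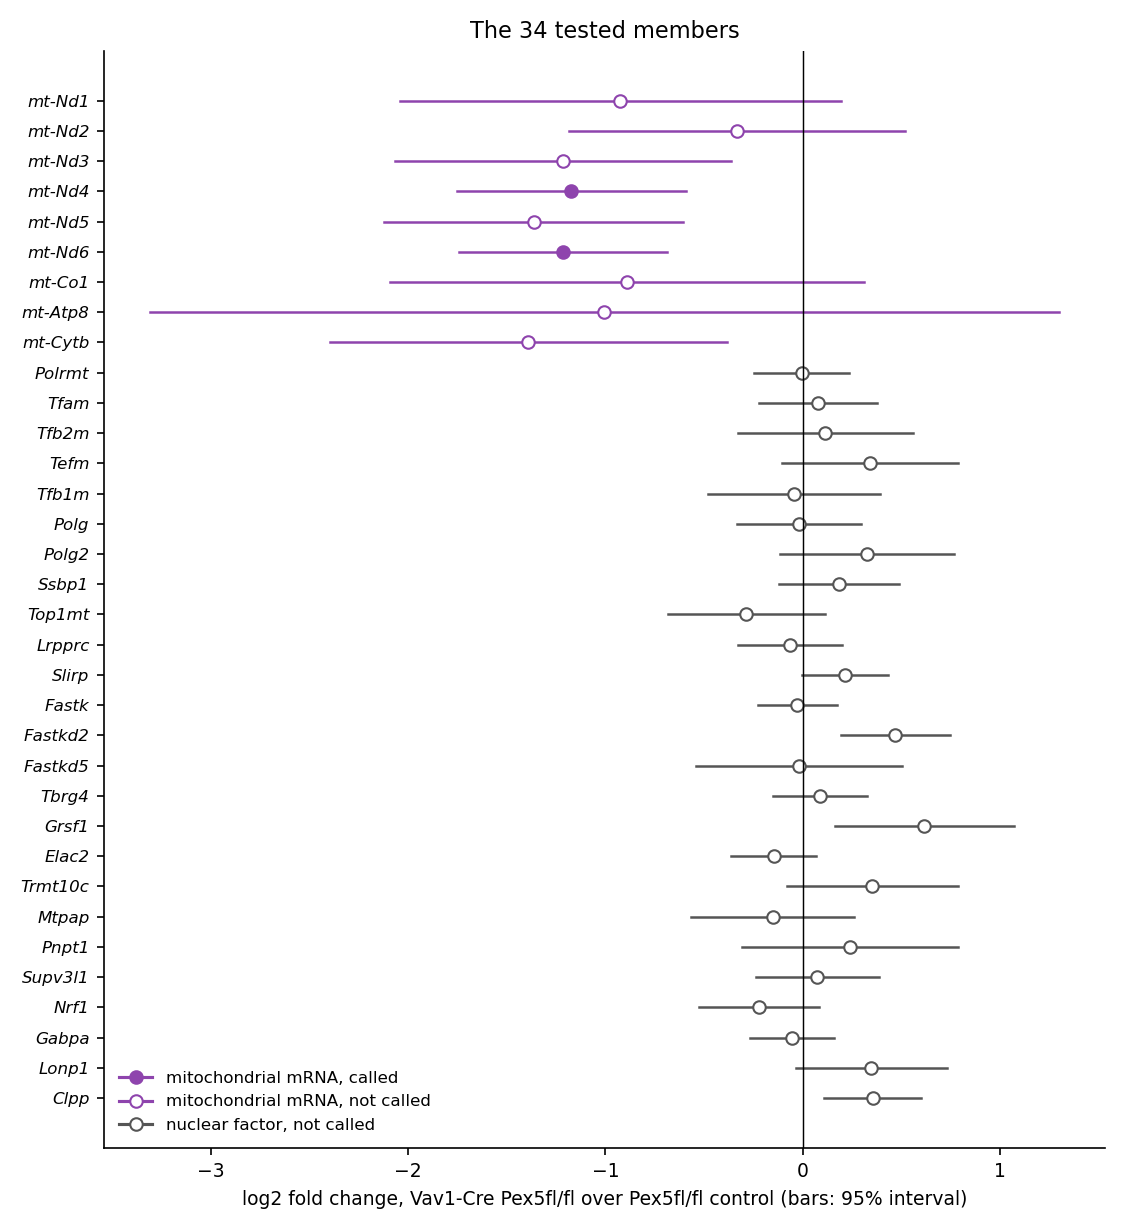
Log2 fold change, Vav1-Cre Pex5fl/fl over Pex5fl/fl control, of the 34 members tested, with 95% intervals from edgeR; filled symbols are called genes. The 9 mitochondrial mRNAs (purple) lie between -1.39 and -0.33, and the 25 nuclear factors (grey) between -0.29 and 0.62.

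The promoters of the nuclear factors were read because GABPA and NRF1 are known to act at many of them. RefSeq promoters of 300 bases (GRCm38.p6, 250 before and 50 after the start) were matched for 23 of the 25, Mtpap and Top1mt being the others, with 25 promoters in all. The ETS core CCGGAAG, searched on both strands, was in 14 of the 25 promoters (56%), of 14 different genes. It was in 19.1% of the 10820 promoters of tested genes and in 8.86% of all 32851. The palindrome TGCGCA, the core of an NRF1 site, was in 4 of the 25 promoters (16%), those of Fastk, Lonp1, Polrmt and Tfb2m, in 14.5% of promoters of tested genes and in 7.76% of all. It was chosen after a longer form of the site had given no match. No match of either motif overlapped the other. A match in a window is a description of letters and says nothing of binding in these cells. Shown are the promoters of Slirp with 3 matches, of Tfam and of Clpp, with the ETS core in capitals on whichever strand it lies (chr12:87443646-87443945, plus; chr10:71237995-71238294, minus; chr17:56990014-56990313, plus):
Slirp: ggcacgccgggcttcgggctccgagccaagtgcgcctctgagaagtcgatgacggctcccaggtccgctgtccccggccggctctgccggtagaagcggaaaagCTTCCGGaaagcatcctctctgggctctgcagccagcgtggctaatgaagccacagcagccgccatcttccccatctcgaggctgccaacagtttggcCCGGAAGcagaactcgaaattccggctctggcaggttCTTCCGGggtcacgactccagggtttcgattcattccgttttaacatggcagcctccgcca
Tfam: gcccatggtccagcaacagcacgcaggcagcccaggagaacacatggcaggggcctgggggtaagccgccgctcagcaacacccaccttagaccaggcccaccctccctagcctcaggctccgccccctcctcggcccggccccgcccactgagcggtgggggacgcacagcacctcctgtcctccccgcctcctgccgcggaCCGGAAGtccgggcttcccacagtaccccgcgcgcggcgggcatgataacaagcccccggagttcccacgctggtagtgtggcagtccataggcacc
Clpp: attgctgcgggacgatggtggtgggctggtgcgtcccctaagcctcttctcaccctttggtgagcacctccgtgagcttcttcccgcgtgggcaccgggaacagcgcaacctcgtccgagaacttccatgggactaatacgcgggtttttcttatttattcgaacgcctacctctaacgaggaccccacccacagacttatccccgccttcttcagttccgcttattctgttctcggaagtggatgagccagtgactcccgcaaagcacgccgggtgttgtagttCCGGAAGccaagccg
Slirp and Clpp were among the 5 genes with all Vav1-Cre libraries above the control ones, and Tfam was not. Of those 5 genes Fastkd2 held no ETS core in its promoter, and Grsf1 had a promoter with it and another without. Whether the motif goes with the difference in level was not tested.

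Other genes of the same processes, from lists drawn up with earlier results of these data known, gave 0 calls by edgeR's quasi-likelihood test. Among all genes tested 3.25% were called. Of 11 other replication and nucleoid factors all were tested, with a median log2 fold change of 0.12, and the smallest p belonged to Mgme1 (0.22 ± 0.13), a nuclease, and Twnk (-0.29 ± 0.19), the helicase. Of 5 termination factors 3 were tested, Mterf3 giving 0.38 ± 0.19 and Mterf2 -0.51 ± 0.41. Among 22 other genes of RNA processing, modification and decay the median was 0.13. An unadjusted p under 0.05 was found for 2 of them, where all genes tested gave 18.9%. Rpusd3, a mitochondrial pseudouridine synthase, had 23.62, 33.99 and 34.76 CPM in Vav1-Cre and 18.6, 16.4 and 21.9 CPM in control libraries. It was higher in all Vav1-Cre libraries, at 0.70 ± 0.17 (adjusted p = 0.0700). Rexo2, an exonuclease for short RNAs, had 180, 153 and 193 CPM in Vav1-Cre and 226, 226 and 216 CPM in control libraries. It was lower in all of them, at -0.34 ± 0.12 (adjusted p = 0.171).

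The 12 mitochondrial translation factors had a median of 0.10, with the recycling factor Mrrf at 0.25 ± 0.11 and the release factor Mtrf1 at 0.29 ± 0.18. Of 6 other regulators of mitochondrial biogenesis 5 were tested, with Yy1 at 0.23 ± 0.21 and the coactivator Ppargc1b at -0.14 ± 0.20. The 8 other proteases and chaperones had a median of 0.02, with Htra2 at 0.15 ± 0.10 and Hspe1 at 0.30 ± 0.23. None of these values passed the threshold. Of the 75 nuclear-encoded oxidative phosphorylation subunits, all of them tested, 54 were positive and 21 negative, with a median of 0.08. An unadjusted p under 0.05 was found for 11 of the 75, where all genes tested gave 18.9%. Vav1-Cre libraries were above all control libraries for 13 of the 75 and below for 2, where this held for 13% and 13.1% of all genes tested. Ndufa6, an accessory subunit of complex I, had 103, 70.8 and 93.5 CPM in Vav1-Cre and 62.5, 57.7 and 58.7 CPM in control libraries. All Vav1-Cre values were higher, at 0.58 ± 0.14 (adjusted p = 0.0695). Ndufab1, the acyl carrier protein of complex I, averaged 28.7 ± 3.36 CPM in Vav1-Cre and 21.1 ± 1.30 CPM in control libraries, at 0.44 ± 0.12 (adjusted p = 0.0899).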

How the data were processed

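Per the labels' protocols, total RNA of sorted lavage macrophages went into a stranded SMART-Seq kit and was sequenced with single-end reads. The authors deposited whole-number counts, 1 table of 25664 genes by symbol and 1 column per library. STAR and featureCounts are named in the submitters' processing notes, beside DESeq2 1.40.1, R 4.3.2 and the builds mm10 and GRCm38.p5. The annotation, the strand setting and the treatment of reads with several matches are not stated in these sources. The counts are of PCR reads without molecular identifiers, so intervals and the limit of 3 counts cover counting error only.

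Genotype labels gave the groups and titles the replicate numbers. Separate mice are not mentioned in the labels. The p-values therefore cover the spread among the 6 samples alone, and part of that spread may be technical. No pair of libraries held near-identical counts. The members and gene lists were chosen with earlier results of these data known. Genes were filtered with edgeR's filterByExpr (minimum count 10, minimum total 15), which left 11011, libraries were scaled by TMM factors, and Vav1-Cre Pex5fl/fl was compared with Pex5fl/fl by glmQLFit and glmQLFTest (edgeR 4.0.16, R 4.3.3). Tests were two-sided and adjusted by the Benjamini-Hochberg method over these genes. Levels are CPM on scaled library sizes. Marker sums and the limit of 3 counts use unscaled totals. Log2 fold changes are Vav1-Cre over control, with SEs from the F statistic. Values per library are given for the mitochondrial mRNAs, the 8 nuclear factors with the smallest p, and Tfam, Polrmt and Polg. Of each list the 2 genes with the smallest p are named. Rpusd3, Rexo2 and Ndufa6 are also given per library, and Pnpt1 for its range, which was chosen after its values were seen. The edgeR steps were also run on counts simulated from the means and dispersions of these libraries, with each gene drawn independently. The outcome is not given here and no result rests on it. DESeq2 1.42.0, limma-voom (limma 3.58.1), other scalings and filters, a replicate block and leaving out each library were the alternatives. Shared words, coordinates and mitochondrial sequences are from GENCODE M21 (GRCm38), and promoters from RefSeq (GRCm38.p6).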

Additional observations from a re-analysis of the deposited data

How the results depend on the processing

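Against 358 genes called in all, DESeq2 called 755, the fit with the replicate number as a block 83, and fits without 1 library 76 to 523. Scaling by library size only called 289 higher and 132 lower, against 192 and 166, and put the median of all genes at a log2 fold change of 0.17. Against 2 mitochondrial mRNAs called lower, there were 4 with DESeq2 (mt-Nd3, mt-Nd4, mt-Nd5 and mt-Nd6), 6 with library size only, 1 with a mean of at least 5 CPM, 0 with the replicate block, and 0 to 2 without 1 library. Under the block the adjusted p was 0.148 for mt-Nd4 and 0.109 for mt-Nd6, and 0.110 for Trub2, 0.110 for Cox17, 0.147 for Uqcc2, 0.176 for Timm10 and 0.0615 for Chchd10, which are called without it. Same-numbered samples had correlations of deviations of -0.21, -0.06 and -0.41, and no sample correlated best with its own number. The labels do not say whether the numbers pair the samples, and 3 libraries per group cannot settle it. Against 0 nuclear factors called, there were 0 to 1 without 1 library, and with library size only their median was 0.26. The median of the mitochondrial mRNAs ranged from -1.47 to -0.75 without 1 library, the log2 ratio of their mean shares (-0.91) from -1.32 to -0.60, and the log2 ratio to nuclear factors from -1.65 to -0.75. Log2 fold changes of some genes not called changed sign. Among them were mt-Nd2 and Pnpt1, at -0.33 and 0.24 with the settings used above. With library size only, Polrmt had 0.17, Tfb1m 0.14, Polg 0.16, Lrpprc 0.088, Fastk 0.15, Fastkd5 0.13, Elac2 0.026, Gabpa 0.12 and Ppargc1b 0.069. Polrmt had 4.81e-06 with DESeq2-type (RLE) factors and 0.0096 with upper-quartile factors. Without 1 library, ranges were -0.070 to 0.052 for Polrmt, -0.30 to 0.13 for Fastkd5, -0.15 to 0.027 for Lrpprc, -0.079 to 0.096 for Polg, -0.046 to 0.43 for Pnpt1, -0.69 to 0.030 for mt-Nd2, -0.31 to 0.012 for Mtpap, -0.089 to 0.054 for Tfb1m and -0.043 to 0.0066 for Fastk. The cause of these changes was not tested. Shares without the mRNAs that have nuclear copies, or of the counts of tested genes, moved by less than the spread between replicates. Depth limits mt-Co2, mt-Co3, mt-Atp6, mt-Nd4l and mt-Atp8, at 20 counts or fewer in any library.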

Other observations

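Among the genes called higher in Vav1-Cre macrophages were 5 nuclear genes of mitochondrial upkeep that are in none of the lists above, and they were chosen after their values were seen. Other nuclear genes for mitochondrial proteins were called higher, such as Mrpl14 and Coq10a, and others lower, such as Mcub, Car5b and Gatm. Neither direction was counted, so the 5 do not show a common direction of such genes. Trub2, a pseudouridine synthase that modifies mitochondrial mRNA, had 27.1, 23.9 and 24.1 CPM in Vav1-Cre and 16.0, 13.9 and 17.8 CPM in control libraries. All Vav1-Cre values were higher, with a log2 fold change of 0.65 ± 0.13 (edgeR's quasi-likelihood test, adjusted p = 0.0339). Chchd10, a protein of the intermembrane space, had 40.3, 37.8 and 40.3 CPM in Vav1-Cre and 21.1, 25.9 and 20.8 CPM in control libraries. It was higher in every Vav1-Cre library, at 0.80 ± 0.11 (adjusted p = 0.0111), and among the 6 fits that left out a library it lost its call in the fit without control replicate 1 (0.0605).

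Cox17, the copper chaperone of cytochrome c oxidase, averaged 44.4 ± 0.985 CPM in Vav1-Cre and 30.7 ± 1.94 CPM in control libraries (SD, n = 3 each), at 0.53 ± 0.09 (adjusted p = 0.0238). Uqcc2, an assembly factor for cytochrome b and complex III, averaged 23.3 ± 0.597 CPM in Vav1-Cre and 16.0 ± 1.12 CPM in control libraries, at 0.54 ± 0.11 (adjusted p = 0.0369). Timm10, a carrier of proteins through the intermembrane space, averaged 32.2 ± 0.398 CPM in Vav1-Cre and 23.6 ± 1.22 CPM in control libraries, at 0.45 ± 0.10 (adjusted p = 0.0431). The 3 lay above all control libraries in every Vav1-Cre library. Their calls were lost in most of the 6 fits that left out a library: Cox17 and Uqcc2 kept theirs in 1 of these, Timm10 in 0, and Trub2 in 2. With scaling by library size only the adjusted p was 0.077 for Trub2, 0.091 for Cox17, 0.158 for Uqcc2 and 0.219 for Timm10, and with limma-voom it was 0.0539 for Timm10.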
